A study of Homo sapiens and Mus musculus with 61 samples.

Results

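Promoters of the ribosomal protein genes are described here across 17 tables of biotinylated dCas9 occupancy in K562, an established human erythroleukaemia cell line that makes embryonic and fetal globins. Each table lists regions of 300 bp for the libraries of 1 guide and for the same 4 libraries of the non-targeting guide sgGal4. A region was counted as a member when its centre lay within 1000 bp of a transcription start of a protein-coding gene named RPL or RPS with a number (letter and X suffixes included), RPLP0, RPLP1, RPLP2 or RPSA, in GENCODE 44 on hg19. The RPS6K kinases and the like-genes were left out. The rule gave 77 genes, of which 68 had at least 1 region. Together they took 481 of the 143198 entries in the tables, or 345 distinct regions out of 91133, and each appearance of a region in a table is called a listing below.

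CAPTURE combines a catalytically dead Cas9 that carries a biotin tag with a guide RNA, so that the DNA it sits on can be pulled down on streptavidin beads and sequenced. All groups used here were K562 cells whose DNA was recovered on streptavidin beads, and they differ in the guide alone, as far as the labels say. Guides sgHS1, sgHS2, sgHS3, sgHS4 and sgHS5 bear the names of the hypersensitive sites of the beta-globin locus control region, sgHS1-5 covers those sites together by its name, sg3'HS1 is named for the site beyond the other end of the cluster, and sgHBB, sgHBG and sgHBD-1kb are named for globin genes. A name ending in sg2 marks a further guide of the same name. There were 42 guide libraries: 6 for sgHS1-5, 5 for sgHS2, 4 for sgHBG, 3 each for sgHS3 and sgHS5, 1 each for sgHS2-sg2, sgHS3-sg2 and sgHBB, and 2 for each of the other guides (sgHS1, sgHS1-sg2, sgHS4, sgHS4-sg2, sgHS5-sg2, sgHBB-sg2, sgHBG-sg2, sgHBD-1kb and sg3'HS1). No guide is named for a ribosomal protein gene, so all member regions lie away from the sites the guides are named for. The labels do not say whether libraries of a guide came from separate cultures, so the p-values below measure the spread between these libraries, which may be technical.

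Ribosomal proteins join ribosomal RNA to build the small (40S, RPS) and large (60S, RPL) subunits of the ribosome. Their genes are among the most strongly transcribed of a dividing cell, have short, open, TATA-poor promoters, and start transcription at a cytosine inside a run of pyrimidines. The resulting 5' terminal oligopyrimidine (TOP) sequence lets the mTOR pathway control their translation as a set. Red cell precursors depend heavily on them: loss of a copy of RPS19, RPL5, RPL11 and others causes Diamond-Blackfan anaemia, an inherited failure of red cell production, and loss of a copy of RPS14 contributes to the anaemia of the 5q- syndrome.

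The start sites of 8 members are shown first, because it carries the feature by which these promoters are known. They come from RefSeq (GRCh38.p14, gene strand) and run from 40 bases before to 20 after the start, with the run of C and T at the start in capitals. The first 4 are genes of the results below with long runs, RPLP0 and RPL10A are promoters listed in all 17 tables, and RPS29 and RPS4X, which gave the highest and third-highest log2 ratios, have short runs.
RPS16: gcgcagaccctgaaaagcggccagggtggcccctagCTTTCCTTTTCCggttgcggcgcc
RPL18: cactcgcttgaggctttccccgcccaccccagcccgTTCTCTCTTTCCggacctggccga
RPL26: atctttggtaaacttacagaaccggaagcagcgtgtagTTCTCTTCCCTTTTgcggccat
RPL29: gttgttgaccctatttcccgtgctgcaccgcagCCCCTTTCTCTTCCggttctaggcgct
RPLP0: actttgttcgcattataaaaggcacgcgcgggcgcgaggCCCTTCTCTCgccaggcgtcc
RPL10A: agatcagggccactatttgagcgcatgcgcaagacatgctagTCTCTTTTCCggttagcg
RPS29: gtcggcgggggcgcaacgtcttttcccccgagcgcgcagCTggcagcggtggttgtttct
RPS4X: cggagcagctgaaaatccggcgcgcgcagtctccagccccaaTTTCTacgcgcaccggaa

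Of the 77 genes, 62 had a promoter in the RefSeq table (250 bases before to 50 after the start). A run of at least 8 pyrimidines that touched the stretch from 5 bases before to 10 after the start was found in 48 of these 62 (77.4%) and in 12.8% of all 35116 promoters of the table. The median run was 11 bases in the members and 4 in all promoters. The letters CTTTCC stood inside the run in 25.8% of members and 1.44% of all promoters, and anywhere in the promoter, on either strand, in 46.8% and 26.3%. The ETS-type motif CCGGAAG was present in 33.9% of members against 10.3%, the GC box GGGCGG in 54.8% against 45.0%, the YY1-type motif AAGATGG in 12.9% against 5.84%, and the TATA box TATAAA in 8.06% against 11.5%, each on either strand. Among the 22198 protein-coding promoters alone these 4 shares were 12.8%, 56.3%, 6.04% and 9.47%. Against that set the GC box was no more frequent in members, and the TATA box was little rarer. On the other strand the ETS-type motif reads CTTCCGG and can therefore overlap the end of a pyrimidine run. A match says that the letters are there, not that a factor binds. The runs were about as long in the 7 matched genes listed in all 17 tables (median 10 bases), the 47 listed in fewer (11) and the 8 with no region (12).

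Member regions sat close to the start. The region covered the canonical start in 280 of the 481 listings (58.2%), and the median distance of the centre from it was 130 bp. Of the centres, 243 were upstream of the gene, 157 in an exon and 81 in an intron. The centre lay more than 1000 bp from the canonical start in 41 listings of 5 genes, which entered the set through another start of the gene: 23 listings of RPL36, 13 of RPL6, 3 of RPS29, 1 of RPL15 and 1 of RPL22. In 75 listings of 20 genes, the start of another protein-coding gene also lay within 1000 bp, so those regions cannot be assigned to the ribosomal protein gene alone.

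**Figure D1:**
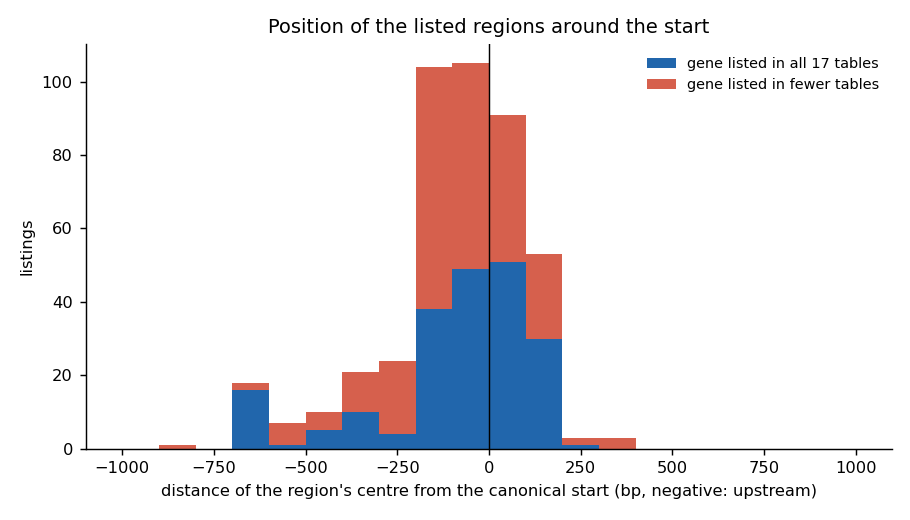
Number of listings (vertical axis) by the distance in bp of the region's centre from the canonical start of the gene (horizontal axis, negative upstream), in bins of 100 bp, for genes listed in all 17 tables (blue) and in fewer (red). Most centres fall within 250 bp of the start, and the 41 listings beyond 1000 bp are not drawn.

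The values in the tables are log2 levels that the authors rescaled between libraries. Each column is a straight line in the log2 of a whole number, so the reads in each region could be worked out, and reads are given below as recovered. The log2 ratio is the log2 of the mean linear level in the guide libraries over the mean linear level in the 4 sgGal4 libraries, as deposited. Depth was low at the members. A guide library had a median of 8 reads in a member region, sgGal4 replicates 1 and 2 had medians of 7 and 12, and sgGal4 replicates 3 and 4 had medians of 1 and 1. Replicate 3 had no read in 140 of the 481 listings (29.1%) and replicate 4 in 160 (33.3%), against 26 and 7 listings in replicates 1 and 2. Because of the rescaling, 0 reads stands at a median level of 2.85 in replicate 3 and 2.87 in replicate 4, and at 0.40 and −0.23 in replicates 1 and 2. A region with no read in these 2 shallow libraries thus still carries a level of several reads there, and the counts over all tables below are also given without them.

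Few member regions passed the test. Raised here means that the log2 ratio reached 1 or more, lowered that it reached −1 or less, each together with an adjusted p below 0.05 (limma on the log2 levels of all regions of a table, Benjamini-Hochberg). Over the 17 tables together, 4 listings were raised (0.832%) and 8 were lowered (1.66%), where 1.66% of all regions were raised and 11.2% lowered. Promoter regions of other protein-coding genes gave 2.11% raised and 2.28% lowered over 38781 listings. With each library centred on its own median, 16 members were raised and 5 lowered, against 4.38% raised and 11.3% lowered over all regions. Without sgGal4 replicates 3 and 4, 96 members were raised (20.0%) and 32 lowered (6.65%), against 24.4% and 14.3% of all regions. All 4 raised calls and 7 of the 8 lowered calls were among these. Leaving out sgGal4 replicate 3 or replicate 4 gave 14 raised each time, leaving out replicate 1 gave 3 raised and 4 lowered, and leaving out replicate 2 gave 2 and 5. Over all regions these settings gave 4637, 5034, 823 and 1192 raised and 11894, 11909, 9937 and 11525 lowered, in the same order. Leaving out guide replicate 1 left only the calls of sgHBB (1 raised and 4 lowered) and sgHS3-sg2 (1 lowered), whose lone library was not removed. In the tables with more guide libraries no member call then remained. Many of those tables keep 1 guide library in such a fit, so counts without a guide replicate are not compared further.

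RPS16, a protein of the 40S subunit, had the highest log2 ratio among the calls. Its region in the sgHBD-1kb table (chr19:39926573-39926872, hg19) lies upstream, centred at −133.5 bp from its canonical start and at −73.5 bp from a start of SUPT5H, the neighbouring gene of a transcription elongation factor. The 2 sgHBD-1kb libraries held 64 and 67 reads, and the sgGal4 libraries held 2, 1, 0 and 1. Both guide libraries thus lay far above all controls, with a log2 ratio of 4.05 and a fitted difference of 4.36 ± 0.75 (SE; limma adjusted p = 0.0110), and the region ranked 13 of the 9939 in that table. RPS16 was listed in 2 other tables, at 0.97 in sgHS1-sg2 and 0.65 in sgHS1-5, and passed the test in neither. In the sgHBD-1kb table the call was lost with 5 reads added to each value, at a ratio of 1.67 (limma adjusted p = 0.0920). With only 1 of the 2 guide libraries the ratio stayed at 4.24 or 3.82, with limma adjusted p of 0.102 and 0.0680.

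RPS4X, the X-linked form of another 40S protein, was raised in the same table, at chrX:71497120-71497419. Its 2 guide libraries held 29 and 27 reads and the sgGal4 libraries 1, 6, 1 and 0. The guide and control values did not overlap, and the log2 ratio was 2.72 (fitted difference 2.89 ± 0.62, limma adjusted p = 0.0145). With only 1 of the 2 guide libraries the call was lost (limma adjusted p = 0.105 and 0.106), as it was with 5 reads added, where the ratio was 0.52. The gene was listed in 6 other tables with log2 ratios from −0.28 (sg3'HS1) to 0.42 (sgHS5). Of all regions in the sgHBD-1kb table, 9.45% were raised, and 14.2% of the promoters of other genes, the highest share of any table.

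RPS27A, which encodes ubiquitin fused to a 40S protein, was raised in the sgHBB table at chr2:55459736-55460035, in an exon and near a start of CLHC1. The only sgHBB library held 36 reads and the sgGal4 libraries 4, 7, 1 and 0. Its log2 ratio was 1.93 (limma adjusted p = 0.0380), and the fit takes the lone library to vary like the controls. The call was lost without sgGal4 replicate 1, 2 or 4 (limma adjusted p = 0.0813, 0.0809 and 0.0560), with 1 read added (0.128) and with 5 added, where the ratio was 0.0079. RPL18, a 60S protein, was raised in the sgHBG table at chr19:49122416-49122715, upstream of its own start and 17.5 bp from a start of SPHK2. The 4 sgHBG libraries held 9, 5, 16 and 28 reads and the sgGal4 libraries 8, 4, 0 and 0. These reads overlap between the groups, and the log2 ratio of 1.55 (limma adjusted p = 0.0351) holds on the rescaled levels. The difference lost its call without any 1 of the 4 guide libraries, without sgGal4 replicate 2 (limma adjusted p = 0.0906) and with 5 reads added to each value, where the ratio was −0.0155. RPL18 was listed in 11 tables, always above 0, from 0.05 in sgHBG-sg2 to 2.71 in sg3'HS1, and passed the test in the sgHBG table alone.

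The highest log2 ratio of all members rested on a single library. RPS29, a small zinc-binding 40S protein, had 4.52 in the sgHBG table at chr14:50053239-50053538, centred at −290.5 bp from the canonical start and within an intron of another transcript. Its 4 guide libraries held 8, 0, 5 and 536 reads and the sgGal4 libraries 4, 3, 0 and 0. Replicate 4 stands alone, and the fitted difference of 2.07 ± 1.16 did not pass the test (limma adjusted p = 0.210). Without replicate 4 the ratio was 0.58. In the 6 other tables that list the gene the ratio ran from 0.22 to 0.88.

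**Figure D2:**
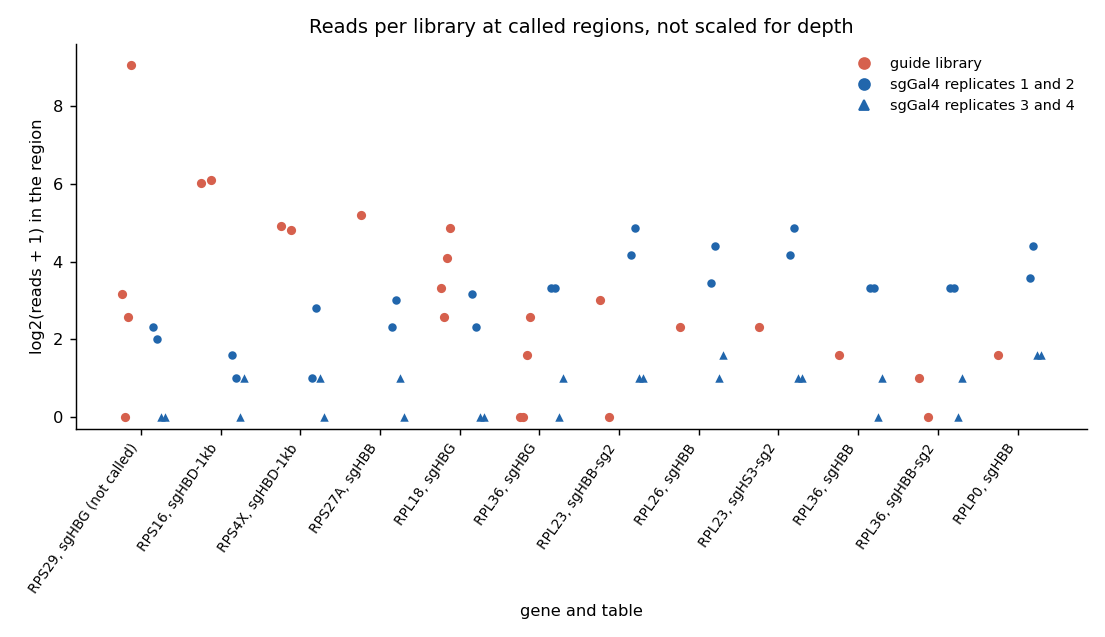
Reads per library on the scale log2(reads + 1) (vertical axis) at 11 of the 12 called listings and at RPS29, which was not called (horizontal axis, ordered by log2 ratio), for guide libraries (red), sgGal4 replicates 1 and 2 (blue circles) and sgGal4 replicates 3 and 4 (blue triangles), not scaled for depth. RPS16 and RPS4X have both guide libraries above all controls, and 1 of 4 guide libraries carries RPS29.

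The 8 lowered calls came from 5 genes, and all of these genes are listed in every table. The sgHBB table held 4 of the 8, and its lone library had 88233 reads in the listed regions, more than sgGal4 replicate 1 (42165) and replicate 2 (74464) there. RPLP0, the base of the acidic stalk that recruits elongation factors, fell in that table at chr12:120638799-120639098, with 2 reads against 11, 20, 2 and 2 (log2 ratio −2.68, limma adjusted p = 0.00994). RPL26, a 60S protein also known for binding the messenger RNA of p53, fell there too, with 4 reads against 10, 20, 1 and 2 (−1.82, limma adjusted p = 0.0365). So did RPL36, a 60S protein, with 2 reads against 9, 9, 0 and 1 (−2.02, limma adjusted p = 0.0420).

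On the rescaled levels the sgHBB library lay below all 4 controls at RPLP0 (1.58 against 4.17 to 4.43), RPL26 (2.32 against 3.82 to 4.43) and RPL36 (1.58 against 3.10 to 4.01), while the reads of sgGal4 replicates 3 and 4, from far shallower libraries, were no higher than those of the guide. After centring each library on its median the ratios were −1.43 at RPLP0, −0.57 at RPL26 and −0.76 at RPL36, and none passed (limma adjusted p = 0.0727, 0.445 and 0.398). RPL26 and RPL36 also lost the call without sgGal4 replicate 1, 2 or 4 (limma adjusted p from 0.0522 to 0.0877). The whole table was shifted: 37.0% of its 5164 regions were lowered, 31.6% of its other promoters, and its median log2 ratio over all regions was −1.53, while that of the 15 members was −0.97.

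RPL36 was also lowered in the sgHBB-sg2 table, with 1 and 0 reads (log2 ratio −2.17, limma adjusted p = 0.00760), and in the sgHBG table, with 0, 0, 2 and 5 reads (−1.55, limma adjusted p = 0.0428), both against the same sgGal4 reads. The sgHBB-sg2 call was lost without guide replicate 1 (limma adjusted p = 0.0719) and on reads plus 1 or 5. The sgHBG call was lost in 9 of 16 alternatives, among them without guide replicate 1, 3 or 4 and without sgGal4 replicate 1 or 4 (limma adjusted p from 0.0777 to 0.105). Its region at chr19:5675423-5675722 lies near an alternative start, 14733.5 bp upstream of the canonical one, and is the member region with the same coordinates in all 17 tables. Such regions numbered 1661 in the series and had a median log2 ratio of −1.82, against 0.35 for the rest. RPL23, a 60S protein that can bind MDM2, was lowered at chr17:37009874-37010173 in the sgHS3-sg2 table (4 reads, log2 ratio −1.85, limma adjusted p = 0.0220) and in the sgHBB-sg2 table (7 and 0 reads, −1.76, limma adjusted p = 0.0191). The sgGal4 libraries held 17, 28, 1 and 1 reads there in both, since they are the same libraries at the same coordinates. In sgHBB-sg2 the call was lost without either guide library (ratio −2.56 or −1.25, limma adjusted p = 0.0691 and 0.147), and in sgHS3-sg2 without sgGal4 replicate 1 or 2 (limma adjusted p = 0.0622 and 0.0507). Both were also lost on centring. The lowest ratio that did not pass was RPL8 in the sgHS2-sg2 table, at −2.38 with 2 reads against 15, 29, 1 and 0 (limma adjusted p = 0.114).

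How often a gene was listed went with its ratio. Among the 13 genes listed in all 17 tables were RPL8, RPL10A, RPL23, RPL26, RPL29, RPL32, RPL36, RPLP0, RPLP1, RPS15A and RPS20. Their 228 listings had a median log2 ratio of −0.44, with 53 above 0 and 175 below, 0 raised and 8 lowered. The other 55 genes gave 253 listings with a median of 0.68, with 231 above 0 and 22 below, 4 raised and 0 lowered. Promoters of other genes divided in the same way: 521 genes listed in all tables had a median of −0.52, and 8856 genes listed in fewer had 0.72. The sources used here do not give how the regions of a table were chosen, so the part of that choice in the ratios was not tested. Within the 13 genes, the 146 listings at the gene's most frequent coordinates had a median of −0.63 and held all 8 lowered calls, and the 82 at other coordinates had −0.10. Without sgGal4 replicates 3 and 4 the medians lay further apart, at −0.42 in the 13 genes and 1.26 in the others. Calls were then 8 raised and 32 lowered in the 228 listings, and 88 raised and 0 lowered in the 253. Of all regions 24.4% were raised and 14.3% lowered in that setting, and 1.66% and 11.2% in the main fit. The call counts are therefore not read as a trait of either set of genes.

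**Figure D3:**
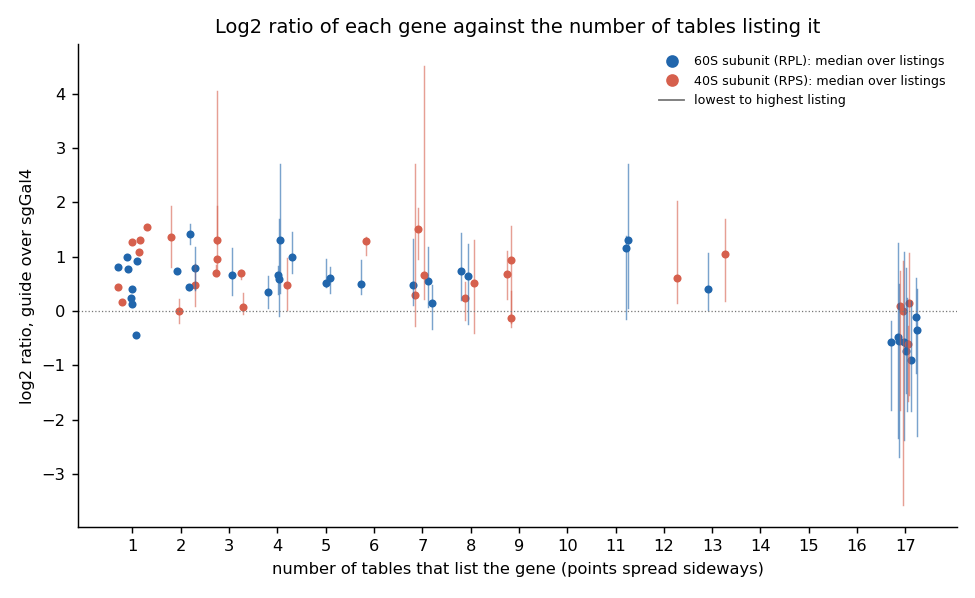
Log2 ratio of guide over sgGal4 (vertical axis) for each of the 68 genes with a region, against the number of tables that list it (horizontal axis, 1 to 17), with points at the gene's median over its listings and lines from its lowest to its highest, blue for 60S and red for 40S proteins. The 13 genes at 17 tables have medians from −0.91 to 0.14, and nearly all others lie above 0.

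The genes were ranked by number of tables and then by sgGal4 reads, and 9 of the first 10 are described. All regions have the same length, but reads were not corrected for copy number or for sequence that maps to more than 1 location. The order by reads is therefore a description only. RPL10A, a 60S protein, held 17, 26, 3 and 3 sgGal4 reads at its most frequent coordinates (chr6:35435831-35436130, upstream), and its log2 ratios ran from −1.14 in sgHBD-1kb to 0.62 in sgHBG with a median of −0.10. RPL32, a 60S protein, held 21, 30, 1 and 1 sgGal4 reads and ranged from −1.84 to 0.23, below 0 in 16 of 17 tables. RPL23 ranged from −1.85 to 0.18 and was also below 0 in 16 tables, with the lowest median of the 9 (−0.91).

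RPL26 and RPS15A, a 40S protein, lay below 0 in all 17 tables. Their ranges were −1.82 to −0.18 and −1.65 to −0.27. RPL29, a 60S protein, lay below 0 in 15 tables (−1.50 to 0.80, median −0.73), as did RPLP0 (−2.68 to 0.49, median −0.55). RPL8, a 60S protein of the peptidyl transferase centre, lay below 0 in 14 tables and had a range of −2.38 to 1.10. RPS20, of the 40S subunit, was the exception, above 0 in 11 of 17 tables (−1.54 to 1.08, median 0.14). The medians of these 9 genes lay between −0.91 and 0.14, and each gene's own SD over tables was 0.35 to 0.80, so neighbours in this order do not differ beyond their spread. The RPS20 median was −0.61 with 5 reads added to each value and scaling to the listed total, −0.10 with 1 read added, and −0.06 without sgGal4 replicates 3 and 4, so it has no settled direction.

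Among genes listed in fewer tables, RPS7 and RPL6 came next, with 13 tables each. RPS7, a 40S protein that binds MDM2, lay above 0 in all of them (0.19 to 1.70, median 1.06), and RPL6, a 60S protein, did as well (0.03 to 1.07, median 0.40), although all 13 of its regions lie over 9138 bp from its canonical start and near a start of PTPN11, a phosphatase gene, at −163.5 to 266.5 bp. RPS26 gave 0.96 to 1.89 in 7 tables and RPS15 1.04 to 1.36 in 6, and neither passed the test in any. RPS3, a 40S protein with a DNA repair role, went against the pattern, with 7 of 9 tables below 0 (−0.29 to 0.37). At the other end, 14 genes were listed in 1 table only. RPL17 was the lowest of them (−0.44). Genes without any region were RPL12, RPL19, RPL21, RPL28, RPL30, RPL34, RPL37A, RPL41 and RPS12. For these, no level can be given in either direction.

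By subunit, the 38 large-subunit genes with a region (of 46) gave 287 listings with a median of 0.03, 1 raised and 7 lowered. The 30 small-subunit genes (of 31) gave 194 listings with a median of 0.39, 3 raised and 1 lowered. Of all regions 1.66% were raised and 11.2% lowered, and of promoters of other genes 2.11% and 2.28%. The few calls are therefore not read as a difference between the subunits. The subunits differ in how many of their genes were listed everywhere, 9 of the large and 4 of the small. Among genes listed in fewer tables the medians were 0.65 and 0.69, and among those listed in all tables −0.53 and −0.16. The 3 stalk proteins RPLP0, RPLP1 and RPLP2, which form the factor-binding arm of the 60S subunit, gave 40 listings with a median of −0.35. All 9 genes taken here as Diamond-Blackfan anaemia genes (RPS7, RPS10, RPS19, RPS24, RPS26, RPL5, RPL11, RPL26, RPL35A) had a region. They gave 75 listings with a median of 0.70, 0 raised and 1 lowered (RPL26 in sgHBB), and 55 of the 75 lay above 0. Of all promoters of other genes 74.1% lay above 0, and the median of all members listed in fewer tables, to which 8 of the 9 genes belong, was 0.68, so these values do not set the list apart. RPS19, the gene most often mutated in that disease, ranged from 0.14 to 2.02 in 12 tables, and RPL5 from −0.16 to 1.39 in 11.

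In single tables the members numbered from 14 (sgHS1) to 47 (sgHS1-5). Their median exceeded that of all regions of the table in 13 of 17 tables, and the difference had a median of 0.33 over tables, from −0.69 in sgHS2-sg2 to 0.77 in sgHS4-sg2. Against promoters of other genes the members were higher in 5 tables and lower in 12. These tables share the sgGal4 libraries, so they are not independent of each other. In 12 tables no member was called.

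Among the first-named guides to the locus control region, the 14 sgHS1 members ranged from −1.19 to 0.44 (all regions: 0.0474% raised, 18.5% lowered). The 24 sgHS2 members, with 5 guide libraries, ranged from −0.69 to 1.29 (0.0192% and 0.0%). The 29 sgHS3 members ranged from −0.74 to 1.88 (6.44% and 9.76%). These 3 sets had 0 calls, though sgHS3 raised regions elsewhere in the genome. The 45 sgHS4 members ranged from −0.97 to 1.25 (0.00932% and 0.0%), and the 42 sgHS5 members from −1.17 to 1.86 (0.0% and 0.0%). For sgHS1-5 the 47 members ranged from −0.89 to 1.52 (0.0533% and 0.0%). In sgHS2, sgHS4, sgHS5 and sgHS1-5, and in sg3'HS1 below, almost nothing passed among all regions. The lack of calls at their members thus has little to be read against.

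The further guides to the same sites had member sets of 20 to 36 regions. With sgHS1-sg2 the 36 members ranged from −1.80 to 2.02 (0.53% raised, 11.9% lowered), and with sgHS2-sg2 the 20 members from −2.38 to 1.69 (1.13% and 13.5%). With sgHS3-sg2 the 22 members ranged from −1.85 to 1.37 (1.13% and 31.1%), and 1 of them, RPL23, was lowered. The median of those 22 was 0.00, against −0.60 over all regions. The 32 sgHS4-sg2 members ranged from −1.18 to 1.16 (0.529% and 21.9%) and the 26 sgHS5-sg2 members from −1.31 to 1.30 (0.52% and 19.2%), with 0 calls in either.

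Among guides named for globin genes, 1 of 15 members was raised and 4 were lowered with sgHBB (4.24% and 37.0% of all regions), and 0 and 2 of 23 with sgHBB-sg2 (0.517% and 29.0%). With sgHBG 1 of 25 was raised and 1 lowered (4.94% and 12.8%), and with sgHBG-sg2 none of 26 (0.926% and 22.4%). With sgHBD-1kb 2 of 26 were raised and 0 lowered (9.45% and 18.7%). The 29 members of sg3'HS1, named for the far end of the cluster, ranged from −1.84 to 2.71 with 0 calls (0.0187% and 0.0%). The lowered share of members was below that of all regions in the tables of guides named for globin genes, and both were 0 in sg3'HS1. Against promoters of other genes the lowered share of members was higher in sgHBB-sg2 (8.70% against 5.33%) and sgHBG (4.0% against 3.04%). The raised share in sgHBB was 6.67%, above that of all regions. Each of these shares rests on 1 to 4 regions.

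**Figure D4:**
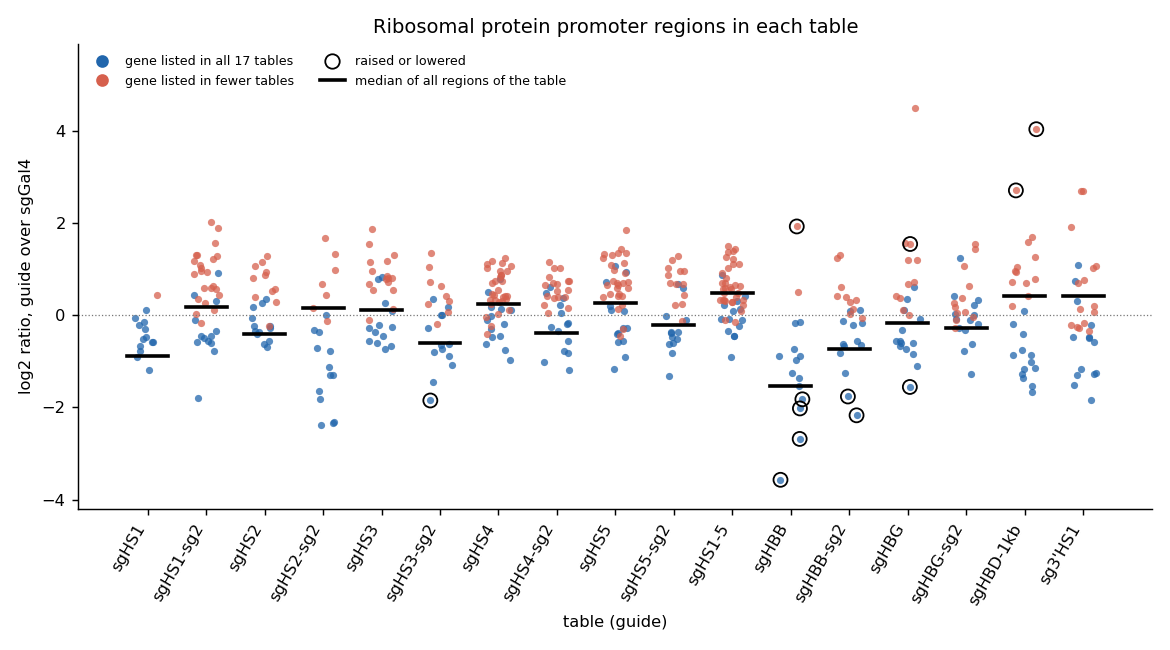
Log2 ratio of guide over sgGal4 (vertical axis) for each member region in each of the 17 tables (horizontal axis), blue for genes listed in all tables and red for the others, with rings around the 12 called listings and a black bar at the median of all regions of the table. Red points lie mostly above 0 and blue points mostly below, and the sgHBB table is the lowest.

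The share of a library's listed reads that fell in member regions differed in direction between tables. Every guide library lay above all 4 sgGal4 libraries in 7 tables (sgHS1-sg2, sgHS2, sgHS3-sg2, sgHS4-sg2, sgHS5-sg2, sgHBB-sg2 and sgHBG-sg2), below all of them in 3 (sgHS2-sg2, sgHBB and sg3'HS1), and overlapped them in the other 7. The share ran from 0.169% to 0.823% over the 42 guide libraries, with a median of 0.416%. In sgGal4 replicates 1 to 4 the medians over the 17 tables were 0.401%, 0.377%, 0.334% and 0.315%. As a share of reads in promoters of all protein-coding genes, the medians were 1.25% in the guide libraries and 1.85%, 1.80%, 1.30% and 1.29% in sgGal4 replicates 1 to 4. On that share none of the 7 tables kept its guide libraries above all 4 sgGal4 libraries. In sgHS3-sg2 the guide library lay below them (1.25% against 1.30% to 1.93%). So did both of sgHBG-sg2 (1.05% and 0.798% against 1.16% to 1.59%), and the rest overlapped. The guide libraries of sgHS2-sg2, sgHBB and sg3'HS1 stayed below. Only 1 guide library each stands for sgHS2-sg2, sgHS3-sg2 and sgHBB. The number of listed regions moves the share of listed reads, since members were 0.233% of the regions in sgHS2-sg2 and 0.513% in sgHS4-sg2. In the sgHS4-sg2 table both guide libraries (0.782% and 0.733%) lay above the sgGal4 libraries (0.4929%, 0.487%, 0.476% and 0.398%). In sg3'HS1 both guide libraries (0.240% and 0.201%) lay below them (0.316%, 0.318%, 0.281% and 0.304%). The highest share, 0.823%, belonged to sgHBG replicate 4, whose 880 member reads include the 536 at RPS29.

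**Figure D5:**
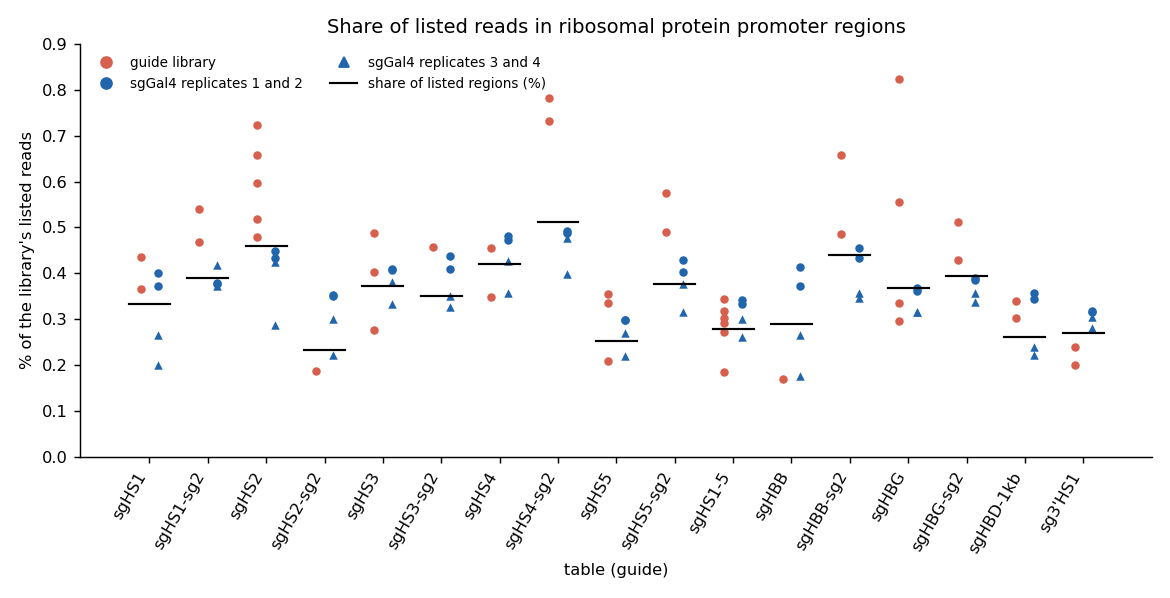
Share of each library's listed reads in ribosomal protein promoter regions, in percent (vertical axis, from 0), by table (horizontal axis), for guide libraries (red), sgGal4 replicates 1 and 2 (blue circles) and sgGal4 replicates 3 and 4 (blue triangles), with a black line at the share of listed regions. Guide libraries lie between 0.169% and 0.823% and lie above all controls in 7 tables, below them in 3 and among them in 7.

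Calls in related gene lists stand beside 1.66% raised and 11.2% lowered over all regions. Promoters of other protein-coding genes gave 2.11% and 2.28%. The mitochondrial ribosomal proteins, which build the separate ribosome of that organelle, had a region for 70 of 78 genes and 403 listings with a median log2 ratio of 0.25, 4 raised (0.993%) and 6 lowered (1.49%). The raised ones included MRPL11 in sgHBB-sg2, with 193 and 52 reads against 3, 5, 4 and 1 (log2 ratio 3.34, limma adjusted p = 0.00630). The lowered ones included MRPS17 in sgHBB, with 0 reads, which allows up to 3 by counting error, against 17, 20, 0 and 0 (−3.99, limma adjusted p = 0.0117). Other translation genes whose messenger RNA starts with a TOP sequence had a region for 17 of 20 genes and 88 listings with a median of 0.55, 6 raised (6.82%) and 1 lowered (1.14%). That raised share lay above the 2.11% of other promoters but rests on 6 listings. EIF4B, an initiation factor, accounted for 2 of those raised, in sgHS5-sg2 (2.00, limma adjusted p = 0.0428) and sgHBD-1kb (1.91, limma adjusted p = 0.0407), and NAP1L1, a histone chaperone, was raised in sgHBD-1kb (2.03, limma adjusted p = 0.0368). In sgHBD-1kb 14.2% of the promoters outside the ribosomal protein genes were raised. Ribosome biogenesis factors had a region for 19 of 20 genes and 85 listings with a median of 0.52, 0 raised and 1 lowered, NOLC1 in sgHBD-1kb (−1.71, limma adjusted p = 0.0480).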

How the data were processed

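Streptavidin pull-downs from K562 were sequenced by the submitters on a NextSeq500 from NEBNext libraries, and reads with a single location in hg19 were kept, per the labels' protocols. Bowtie 1.0.0 and Picard are named in the submitters' processing notes. How regions were called and levels rescaled is not given in the sources used here. The deposited values are log2 levels per library and region, with the authors' own log2 ratio in the same tables; recomputed from the levels, that ratio differed by at most 1.39e-08. All levels gave whole numbers within 0.01, and reads are those numbers less 1. The files hold 46 of the 61 samples, and 15 samples were not analysed here. Listed regions held 7127 to 432553 reads per guide library and 6499 to 169968 per sgGal4 library.

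Each table was fitted on all of its regions with limma 3.58.1 (R 4.3.3, eBayes without a trend, two-sided, Benjamini-Hochberg), guide against sgGal4; the count test that had been planned for whole counts does not apply to rescaled levels. Where a table has 1 guide library, it was taken to vary like the controls. The fit was also run on simulated normal noise with its own fitted variances. That run does not test it at the low read counts of these data. No fit crosses tables, because they were normalised separately. The members, gene lists, motifs and named genes were chosen with earlier results of these data known; named are the 10 genes in the most tables, every called region, the 3 highest and 3 lowest ratios, genes without a region, and up to 3 calls per other list and direction, and a few of these are not reported here. RPS7, RPL6, RPS26, RPS15, RPS3, RPL17, RPS19 and RPL5, the subunit groups and the anaemia list were added after the values were seen. Alternatives covered the scale, centring, added reads, a filter on low regions, thresholds, the variance trend, distance to the start, left-out libraries and a replicate block. Counting error alone underlies the limit of 3 reads for a count of 0.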

Additional observations from a re-analysis of the deposited data

Results flagged for a closer look

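Among 37 groups of 4 to 6 libraries, 4 held a library set far apart from the others (Dixon's test at its 95% limit), and chance alone flags about 1 group in 20. In the sgHS1-sg2 table sgGal4 replicate 4 had a member share of 0.4183% of its listed reads, above the other 3 sgGal4 libraries. In the sgHS2 table the same library had 0.2872%, below the other 3. At RPL36 in the sgHBG table the log2 level was 0 in replicate 1, where the other 3 guide libraries had 1.505, 1.295 and 1.53. At RPL18 in the sgHBG table replicate 1 had a log2 level of 3.322, and the other 3 had 3.97, 3.97 and 3.93. In the last 2 groups the library apart is the one whose levels the authors left unscaled, with 0 reads at level 0.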

How the results depend on the processing

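Counts of raised and lowered members moved with most settings. Out of 481 listings they were 2 and 26 on reads plus 1, 16 and 5 with levels centred on each library's median, 0 and 1 on reads plus 5, 2 and 4 with a size threshold of 2, 7 and 15 with a variance trend, and 96 and 32 without sgGal4 replicates 3 and 4. Counts over all 143198 regions moved as well, from 2384 raised and 16084 lowered in the main fit. They were 1269 and 20653 on reads plus 1, 6265 and 16204 on centring, and 82 and 1949 on reads plus 5. A size threshold of 2 gave 1633 and 11860, the variance trend 4060 and 16628, and leaving out sgGal4 replicates 3 and 4 gave 34937 and 20541. Lowered members numbered 5 within 500 bp, 5 within 1000 bp of the canonical start (a setting chosen after seeing the data) and 3 without the tables of 1 guide library. Leaving out 1 sgGal4 replicate gave 2 to 14 raised and 4 to 8 lowered members. Leaving out a guide replicate changed only tables with more than 1 guide library, since the others kept the main fit. RPL18 in sgHBG turned to −0.0155 on reads plus 5. No other called member listing changed sign, nor did RPS29 in sgHBG or RPL8 in sgHS2-sg2. The RPS20 median over tables changed sign on reads plus 1 (−0.0961), on reads plus 5 and without sgGal4 replicates 3 and 4. Regions of the other gene lists and of the genes added after the values were seen were not rerun singly. The difference of the member median from that of all regions stayed above 0 under every alternative run, at 0.25 to 0.43. The share of listed reads in members was 0.4158%, and 1.2503% with promoter reads as the total. With the replicate number as a replicate block, possible in 14 tables, 26 members were raised and 12 lowered, against 3 and 3 there without it. All regions of those tables gave 9754 raised and 11532 lowered with the block, against 1997 and 11063 without it. Same-numbered guide and sgGal4 libraries had correlations of −0.25 to 0.22 in their departures from the group mean (36 pairs, median 0.01). In 0 of 5 tables with at least 3 pairs did every library go best with its own number. Where a guide has 2 libraries, their departures mirror each other. These correlations therefore cannot tell whether same-numbered libraries share a culture or day. Low depth limits all calls: member regions mostly hold under 10 reads per library, and the cause of the changes between settings was not tested.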
